A study of Mus musculus with 6 samples.

Results

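The 10 transcripts described here mark the enteroendocrine cells of the gut and the lineage that leads to them: Neurog3, Neurod1, Chga, Chgb, Tph1, Gcg, Gip, Cck, Sct and Sst. They were chosen by gene name, and all 10 were found among the 28752 genes listed. Their RNA was measured by sequencing in 3 vector samples and in 3 samples in which an adenovirus overexpressed circEZH2_005, a circular RNA of the Ezh2 gene. Both groups were made from Lgr5+ intestinal stem cells (ISCs) of Lgr5-GFP mice that had grown into organoids with crypts and villi, and the genotype of the vector samples is labelled WT. All 6 samples were exposed to hypoxia/reoxygenation (H/R) after 72 h of infection, with 4 h at 2% O2, so both groups share H/R and no comparison with normal oxygen is made. The labels do not give the age or number of mice, and they do not say whether the replicates were separate cultures or animals. The p-values therefore measure the spread between these samples, which may be technical.

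Enteroendocrine cells are scattered hormone-secreting cells of the gut epithelium that sense nutrients and signal to the pancreas, the gall bladder, nerves and the brain. They arise from ISCs through a short-lived secretory precursor that switches on Neurog3, and the factors downstream of it, Neurod1 among them, then establish the hormone programme. Mature cells pack peptide hormones or serotonin into dense granules together with the chromogranins, and subtypes are named by their main product.

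Library totals ran from 71506487 to 79919893 counts, and 3 counts, taken as the smallest detectable amount, were worth 0.0377 to 0.0419 CPM (the count as scaled by library size). Levels below are CPM of the deposited counts after TMM scaling, unless FPKM (which also divides by transcript length, so that genes can be compared) is named. Sets of 3 values are given in the order of replicates 1, 2 and 3, SE is the standard error of a log2 fold change, and adjusted p-values come from edgeR unless DESeq2 is named. Crypt stem cell markers were present in all 6 samples, as the label says, and the markers of enterocytes, goblet cells and Paneth cells were present as well. Leukocyte markers were also present, at sums of 70.3 to 495 CPM, although the label names organoids of Lgr5+ ISCs. The source of the leukocyte transcripts was not tested. Vector sample 2 was about as near to the circEZH2_005 samples as to its own group: its log2 CPM correlated at 0.971 with circEZH2_005 sample 3 and at 0.970 with vector samples 1 and 3. For the enteroendocrine genes, values without it are given where they end or bring a call.

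Of the 10 transcripts, Neurog3, the factor that commits a precursor to the enteroendocrine fate, was lower in the circEZH2_005 samples, to 0.462 of the vector level, whereas no hormone passed the adjusted threshold in either direction. The count was 0 of 10 higher and 1 of 10 lower at an adjusted p under 0.05 (edgeR quasi-likelihood test, Benjamini-Hochberg adjustment over 18348 genes). Over all genes tested, 2.69% were higher and 0.986% lower by the same test. At an unadjusted p under 0.05, Chga and Sct were higher and Neurog3 and Chgb lower, 2 of 10 in each direction, beside 14.0% and 9.72% of all genes. DESeq2 called Neurog3 lower and Chga higher, beside 4.26% lower and 9.65% higher of the 16459 genes it gave an adjusted p. The median log2 fold change of the 10 transcripts was 0.02, and that of all genes was 0.00. In RNA of whole organoids, fewer enteroendocrine cells and less RNA per cell cannot be told apart.

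**Figure D1:**
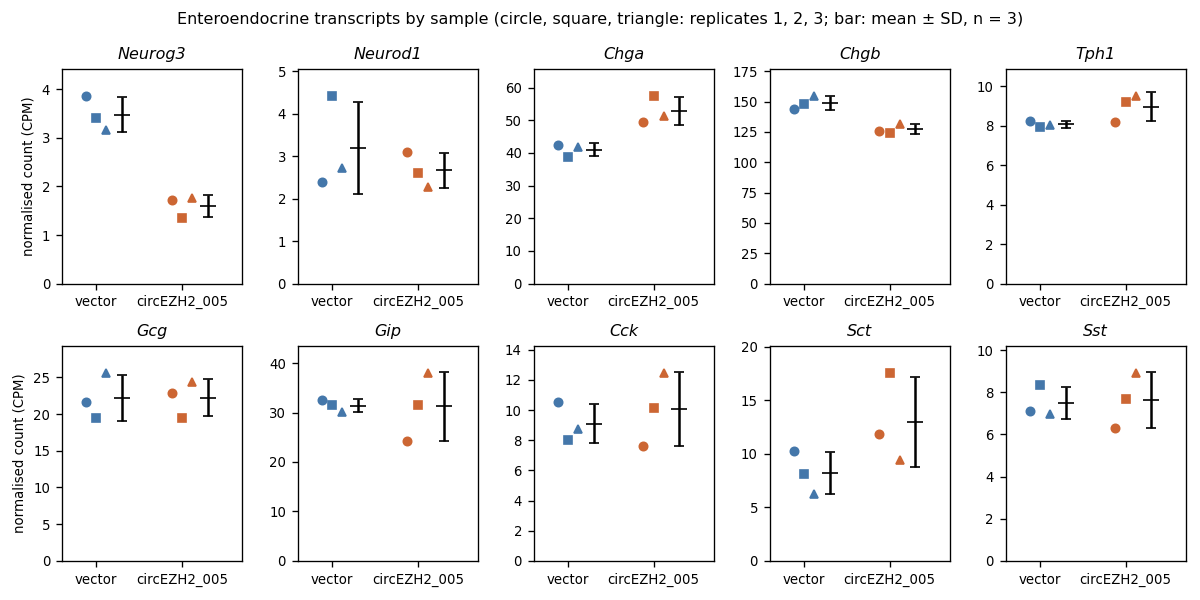
Normalised counts (CPM, vertical axes from 0) of the 10 transcripts in vector (blue) and circEZH2_005 (orange) samples, with symbols for replicates 1, 2 and 3 and bars for mean ± SD (n = 3). The Neurog3 counts of the circEZH2_005 samples, 1.34 to 1.76 CPM, lay below the vector samples, 3.16 to 3.87 CPM, whereas the groups overlapped for Gcg, Gip, Cck, Sct, Sst, Tph1 and Neurod1.

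Neurog3 and Neurod1 are basic helix-loop-helix factors, which bind E-boxes, and the granule gene Chgb and the hormone gene Sst are known targets of CREB, which binds the cyclic AMP response element (CRE). Promoter stretches of these 4 genes are shown because they hold the letters of these motifs. They are RefSeq sequences of GRCm38.p6, read 5′ to 3′ on the gene's own strand, and the capitals mark the motif. The E-box windows of Neurog3 (chr10:62132914-62132941, plus strand, with the motif 165 bases before the start) and Neurod1 (chr2:79456862-79456886, minus strand, 242 bases before) and the CRE windows of Chgb (chr2:132781559-132781588, plus strand, 72 bases before) and Sst (chr16:23890874-23890903, minus strand, 48 bases before) were as follows. Distances are from the RefSeq start, which is also the start of the deposited gene for Neurog3 (62133090) but not for Neurod1 (79456636 against 79456751), Chgb (132781642 against 132781278) or Sst (23890844 against 23890958), so that the CRE windows of Chgb and Sst lie within the genes as deposited.
Neurog3 E-box: tgtccggaatcCAGCTGtgctctgcggg
Neurod1 E-box: gggaagacCATATGgcgcatgccgg
Chgb CRE: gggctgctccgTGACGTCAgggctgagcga
Sst CRE: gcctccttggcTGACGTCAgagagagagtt
Promoters were taken as 250 bases before to 50 bases after each start, which gave 11 promoters for the 10 genes, and both motifs read the same on either strand and do not overlap each other. The E-box, searched as CANNTG, was found in 10 of these 11 promoters and in 72.3% of 32851 promoters of all genes. The CRE, searched as TGACGTCA, was found in the promoters of 2 of the 10 genes, Chgb and Sst, and in 1.79% of all promoters. Chgb was lower in the circEZH2_005 samples without passing the adjusted threshold, and Sst overlapped between the groups. These matches describe the letters only, and binding was not measured here.

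Neurog3 (ENSMUSG00000044312, chromosome 10, 62133090 to 62134763, plus strand, GRCm38) had 280, 254 and 247 counts with the vector and 136, 100 and 126 counts with circEZH2_005. After scaling these were 3.87, 3.40 and 3.16 CPM with the vector and 1.71, 1.34 and 1.76 CPM with circEZH2_005. All 3 circEZH2_005 samples were below all 3 vector samples, with means of 1.60 ± 0.227 and 3.47 ± 0.362 CPM (SD, n = 3). The log2 fold change was -1.11 (SE 0.21, 95% interval -1.61 to -0.62, adjusted p = 0.0394 by edgeR), and the two-sided exact permutation test on CPM gave p = 0.1, the smallest that 3 against 3 samples allow. Ranked by p, Neurog3 stood 421st of 18348 genes. The direction held in all 14 alternatives, at log2 fold changes between -1.19 and -0.67, but the call was lost when any sample but vector sample 2 was left out. The adjusted p was 0.157 without vector sample 1, 0.129 without vector sample 3, 0.0597, 0.128 and 0.0810 without circEZH2_005 samples 1, 2 and 3, and 0.0364 without vector sample 2. Without a filter on low counts it was 0.0732. On the other strand, exons of Fam241b overlap Neurog3, and whether reads were counted by strand is not given. Fam241b had 13.4, 13.6 and 13.0 CPM with the vector and 10.4, 11.6 and 14.2 CPM with circEZH2_005, a log2 fold change of -0.15 (SE 0.14, adjusted p = 0.597 by edgeR).

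Neurod1 (chromosome 2, 79452521 to 79456751, minus strand), which acts after Neurog3 and is kept on in many mature endocrine cells, did not pass the test, and its difference from Neurog3 was not tested. It had 2.40, 4.43 and 2.73 CPM with the vector and 3.11, 2.61 and 2.29 CPM with circEZH2_005. The groups overlapped, and vector sample 2 was the highest of the 6. The log2 fold change was -0.26 (SE 0.28, adjusted p = 0.633 by edgeR), with a 95% interval from -0.91 to 0.39 that holds both no change and a fall nearly as large as that of Neurog3. Without vector sample 2 it was 0.05. Exons of Cerkl overlap Neurod1 on the same strand at 0.180 to 0.349 CPM, and those of Gm26755 on the other strand. The ratio of Neurog3 to Neurod1 CPM was 1.61, 0.767 and 1.15 with the vector and 0.551, 0.515 and 0.768 with circEZH2_005, so vector sample 2 fell just below the highest circEZH2_005 sample.

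The chromogranins, acidic proteins of the secretory granule and general markers of endocrine cells, had log2 fold changes of opposite sign, and neither passed the adjusted threshold. Chga (ENSMUSG00000021194, chromosome 12, 102554969 to 102565028, plus strand) had 42.5, 38.8 and 41.8 CPM with the vector and 49.6, 57.5 and 51.4 CPM with circEZH2_005. All circEZH2_005 samples were above all vector samples. The log2 fold change was 0.36 (SE 0.09, 95% interval 0.16 to 0.57), with an adjusted p of 0.0604 by edgeR and an exact permutation p of 0.1. The adjusted p was 0.0212 by DESeq2 and 0.0466 by edgeR over genes with a mean of at least 1 CPM, and the log2 fold change lay between 0.26 and 0.41 in all alternatives.

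Chgb (ENSMUSG00000027350, chromosome 2, 132781278 to 132795079, plus strand) had 144, 148 and 155 CPM with the vector and 126, 124 and 132 CPM with circEZH2_005. Here all circEZH2_005 samples were below all vector samples. The log2 fold change was -0.23 (SE 0.07, 95% interval -0.40 to -0.05), with an adjusted p of 0.121 by edgeR and an exact permutation p of 0.1. The ratio of Chga to Chgb was 0.295, 0.263 and 0.270 with the vector and 0.394, 0.465 and 0.390 with circEZH2_005, a mean of 0.276 ± 0.017 against 0.416 ± 0.042 (SD, n = 3). The ratio is taken within a sample, so it does not depend on the scaling between samples. It had to separate the groups, since Chga was higher and Chgb lower without overlap. In all, 1 of the 10 transcripts was higher and 2 were lower without overlap between the groups, and over all genes tested 16.4% were higher and 14.2% lower without overlap. The share of genes that separate without overlap was therefore of the same order among the 10 transcripts as among all genes.

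Set against Chga, Neurog3 amounted to 9.09%, 8.77% and 7.54% of the Chga CPM with the vector and to 3.45%, 2.34% and 3.42% with circEZH2_005. Since Neurog3 was lower and Chga higher without overlap, this percentage had to separate the groups, and it is no further evidence. The percentages are ratios of counts that are not corrected for transcript length, and they compare samples rather than genes.

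**Figure D2:**
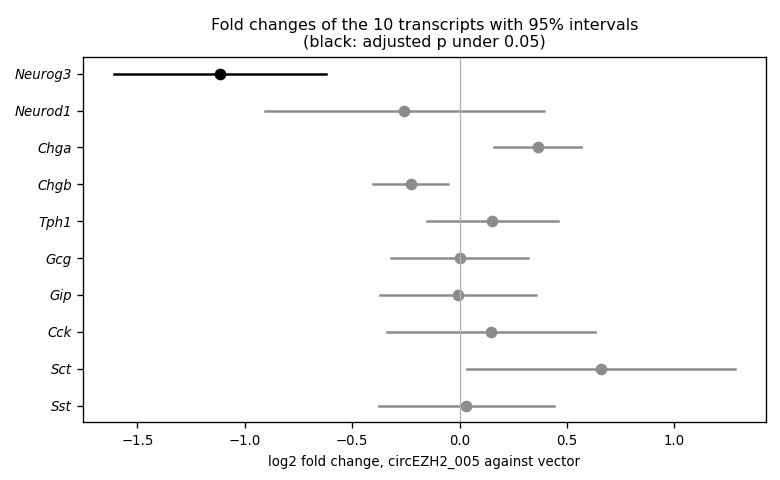
Log2 fold changes (horizontal axis, circEZH2_005 against vector) of the 10 transcripts with 95% intervals from edgeR. Neurog3, in black, is the transcript with an adjusted p under 0.05, at -1.11, and the intervals of Chga and Sct lie above 0 and that of Chgb below it.

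None of the 5 peptide hormones passed the adjusted threshold by edgeR, DESeq2 or limma. Gcg (chromosome 2, 62474530 to 62483650, minus strand), which encodes the precursor of glucagon-like peptides in L cells, had 21.7, 19.5 and 25.6 CPM with the vector and 22.9, 19.5 and 24.4 CPM with circEZH2_005. The groups covered nearly the same range, and the log2 fold change was 0.00 (95% interval -0.32 to 0.32). Its sign differed between the alternatives, which lay from -0.09 to 0.11. Gip (chromosome 11, 96024545 to 96030831, plus strand), the incretin of K cells, had 32.6, 31.5 and 30.1 CPM with the vector and 24.2, 31.5 and 38.0 CPM with circEZH2_005. Its circEZH2_005 samples lay on both sides of the vector samples, with a log2 fold change of -0.01 (95% interval -0.37 to 0.36).

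Cck (chromosome 9, 121489824 to 121495639, minus strand), the I cell hormone that empties the gall bladder, had 10.5, 7.99 and 8.75 CPM with the vector and 7.58, 10.2 and 12.5 CPM with circEZH2_005. The groups overlapped, and the log2 fold change was 0.15 (95% interval -0.34 to 0.63). Sst (chromosome 16, 23889573 to 23890958, minus strand), the inhibitory hormone of D cells, had 7.10, 8.34 and 6.96 CPM with the vector and 6.29, 7.70 and 8.92 CPM with circEZH2_005. These also overlapped, with a log2 fold change of 0.03 (95% interval -0.37 to 0.44) that turned to -0.04 when library totals were used for scaling. The intervals of Gcg, Gip, Cck and Sst leave out a change as large as that of Neurog3, but none of them shows that a level did not change.

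Sct (chromosome 7, 141278330 to 141279133, minus strand), the hormone that makes the pancreas secrete bicarbonate, had the largest log2 fold change of the 5 peptide hormones and the largest SE, 0.27. It had 10.3, 8.07 and 6.29 CPM with the vector and 11.9, 17.6 and 9.41 CPM with circEZH2_005. The lowest circEZH2_005 sample was below the highest vector sample. The log2 fold change was 0.66 (95% interval 0.04 to 1.28), with an unadjusted p of 0.0408 and an adjusted p of 0.188 by edgeR. The summed CPM of the 5 peptide hormones was 82.2, 75.4 and 77.7 with the vector and 72.8, 86.4 and 93.2 with circEZH2_005, means of 78.4 ± 3.46 and 84.1 ± 10.4 (SD, n = 3). The circEZH2_005 samples thus held both the lowest and the highest hormone sum.

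Tph1 (chromosome 7, 46644641 to 46672537, minus strand), the rate-limiting enzyme of serotonin synthesis in enterochromaffin cells, had 8.26, 7.92 and 8.05 CPM with the vector and 8.18, 9.23 and 9.53 CPM with circEZH2_005. The vector samples lay close together and overlapped with the lowest circEZH2_005 sample, and the log2 fold change was 0.15 (95% interval -0.15 to 0.46, adjusted p = 0.536 by edgeR). Mast cells also express Tph1. Over 9 mast cell markers the summed level was 10.2 to 27.4 CPM with the vector and 14.7 to 21.8 CPM with circEZH2_005, 0 markers passed by edgeR or DESeq2 or had an unadjusted p under 0.05, and the part of mast cells in the Tph1 level was not tested.

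By FPKM over all 6 samples, the most abundant of the 10 transcripts was Chgb at 45.3, followed by Gip at 40.8, and their ranges overlapped. Chga followed, in a range below both, at 15.2 FPKM, Sct at 14.5 FPKM and Gcg at 13.4 FPKM, and neighbours among these 3 overlapped. Sst at 9.37 FPKM and Cck at 6.54 FPKM came next, and neither overlapped with the transcript just above it in this order. The lineage factors and the serotonin enzyme were the least abundant, with Neurog3 at 1.37 FPKM, Tph1 at 1.23 FPKM and Neurod1 at 0.968 FPKM, and these ranges overlapped. Within the groups some neighbours changed places. Neurog3 averaged 1.91 FPKM with the vector, above Tph1 at 1.20 and Neurod1 at 1.08 FPKM, and 0.831 FPKM with circEZH2_005, below Tph1 at 1.26 and Neurod1 at 0.855 FPKM. Sct averaged 11.7 FPKM with the vector, below Chga and Gcg, both at 13.8 FPKM, and 17.4 FPKM with circEZH2_005, above Chga at 16.7 and Gcg at 13.0 FPKM.

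The 5 genes whose pattern was most like that of Chga over the 6 samples were Tle4, Arhgef5, Zfp710, Tff3 and Gab2, of 13353 genes with a mean of at least 1 CPM. Likeness was the mean absolute difference of log2 CPM after each gene's own mean was subtracted, and it was 0.0139 for Tle4 and 0.0226 for Gab2. None of the other 9 transcripts was among them, which says little with 5 places among 13353 genes. Of these 9 the nearest, Tph1, ranked 1173rd. Chgb ranked 8646th and Neurog3 12692nd, and both were lower where Chga was higher, as given above.

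Among 5 further lists of enteroendocrine genes, 74 of 86 listed genes could be tested. At an adjusted p under 0.05 by edgeR, 2 were higher and 1 lower, beside 2.69% and 0.986% of all genes. These counts were of the same order as those shares. DESeq2, which called 9.65% of all genes higher and 4.26% lower, called 5 higher and 6 lower among them. Their median log2 fold change was -0.15. The 12 others were too low to be tested in these samples.

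The factors of the enteroendocrine programme had 1 called gene among 20, Sox4, which was lower. Sox4, an SRY-box factor of early secretory precursors, had 41.1, 34.1 and 50.6 CPM with the vector and 22.7, 17.9 and 20.2 CPM with circEZH2_005. All circEZH2_005 samples were below all vector samples, with a log2 fold change of -1.05 (SE 0.16, adjusted p = 0.0235 by edgeR). The call was lost without vector sample 1 (adjusted p = 0.104), vector sample 3 (0.101), circEZH2_005 sample 2 (0.0947) or circEZH2_005 sample 3 (0.0647), and exons of Gm26735 overlap Sox4 on the other strand. At an unadjusted p under 0.05, 1 of the 20 factors was higher and 6 were lower, beside 14.0% and 9.72% of all genes, and the median log2 fold change of the list was -0.26. Insm1, a zinc finger factor of early endocrine differentiation that is named here after its values were seen, had 4.05, 3.02 and 4.33 CPM with the vector and 1.92, 1.73 and 2.14 CPM with circEZH2_005. These groups did not overlap either, at a log2 fold change of -0.98 (SE 0.22, adjusted p = 0.0545 by edgeR and 0.00361 by DESeq2). Without vector sample 2 its adjusted p was 0.0230 by edgeR. The 1 factor higher at an unadjusted p under 0.05 was Pax4, also named after its values were seen. Pax4 had 0.0967, 0.375 and 0.128 CPM with the vector and 0.616, 0.699 and 0.642 CPM with circEZH2_005. Its groups did not overlap, at an adjusted p of 0.132 by edgeR. Without vector sample 2 the adjusted p of Pax4 was 0.0335 by edgeR, at a log2 fold change of 2.52.

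**Figure D3:**
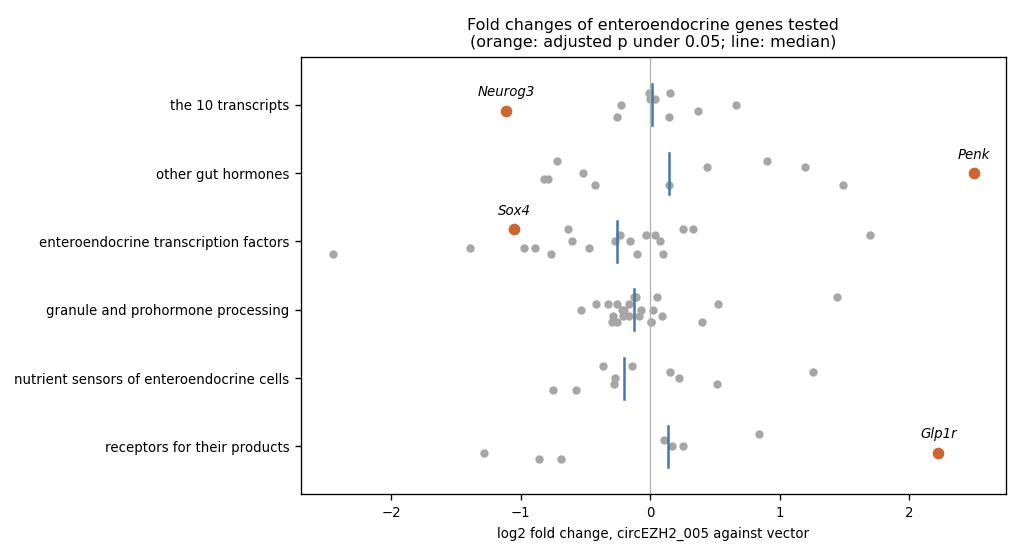
Log2 fold changes (horizontal axis, circEZH2_005 against vector) of the tested genes of the 10 transcripts and of the 5 other enteroendocrine lists, 1 point a gene, with the median of each list as a blue line. The genes with an adjusted p under 0.05 by edgeR, in orange, were Neurog3 and Sox4 on the lower side and Penk and Glp1r on the higher side.

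Of the other gut hormones, 11 could be tested, and Penk, the precursor of enkephalins, was higher. Penk had 0.11, 0.21 and 0.10 CPM with the vector and 0.98, 0.83 and 0.61 CPM with circEZH2_005, from 8 to 16 counts against 44 to 78 counts. The groups did not overlap, and the log2 fold change was 2.50 (SE 0.48, adjusted p = 0.0402 by edgeR). Without vector samples 1 or 3 the adjusted p was 0.157 each time, without circEZH2_005 samples 1, 2 and 3 it was 0.0787, 0.134 and 0.0710, and A830012C17Rik overlaps Penk on the other strand. Penk is also expressed by some leukocytes and by enteric neurons.

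A further 5 hormones are named after their values were seen, because they separated the groups without overlap or were called by DESeq2. Nts, the precursor of neurotensin, had 7.21, 3.88 and 8.30 CPM with the vector and 16.9, 24.8 and 12.6 CPM with circEZH2_005, a log2 fold change of 1.49 (SE 0.34, adjusted p = 0.0555 by edgeR). Pyy, the L cell peptide YY, had 1.17, 0.72 and 1.80 CPM with the vector and 3.53, 3.01 and 1.94 CPM with circEZH2_005 (log2 fold change 1.20, adjusted p = 0.115 by edgeR). Tac1, the precursor of substance P in enterochromaffin cells, was lower in these samples. It had 9.79, 8.22 and 11.6 CPM with the vector and 6.26, 5.64 and 6.03 CPM with circEZH2_005, a log2 fold change of -0.72 (SE 0.17, adjusted p = 0.0573 by edgeR). Nucb2, the precursor of nesfatin, had 21.3, 11.4 and 23.8 CPM with the vector and 11.5, 11.4 and 9.02 CPM with circEZH2_005 (log2 fold change -0.82, adjusted p = 0.116 by edgeR), and these groups overlapped at vector sample 2. Nmb, the precursor of neuromedin B, did not overlap, at 0.456, 0.241 and 0.549 CPM with the vector and 0.742, 0.994 and 0.600 CPM with circEZH2_005 (log2 fold change 0.90, adjusted p = 0.262 by edgeR). DESeq2 called Nts and Pyy higher and Tac1 and Nucb2 lower. Without vector sample 2 the edgeR adjusted p was 0.0480 for Nts, 0.0218 for Tac1 and 0.00807 for Nucb2. Gcg and Pyy, which L cells share, thus had log2 fold changes of 0.00 and 1.20, and the difference between them was not tested.

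Of 25 genes of the granule and of prohormone processing, 1 was higher and 0 lower at an unadjusted p under 0.05. The shares of all genes were 14.0% and 9.72%. By edgeR 0 of the 25 were called, and their median log2 fold change was -0.13. The most abundant were Reg4, a lectin of enteroendocrine and deep crypt secretory cells (log2 fold change 0.02, adjusted p = 0.961), and Ddc, which makes serotonin from its precursor (-0.21, adjusted p = 0.484). Gch1, an enzyme of the cofactor that Tph1 needs, is named after its values were seen, and DESeq2 called it higher. It had 21.7, 21.8 and 23.2 CPM with the vector and 35.9, 34.8 and 25.4 CPM with circEZH2_005 (log2 fold change 0.53, adjusted p = 0.0747 by edgeR). The Tph1 level differed by less than this, at 0.15 on the log2 scale.

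At an unadjusted p under 0.05, 14.0% of all genes were higher and 9.72% lower, and 0 of the 10 nutrient sensors tested passed. By edgeR and by DESeq2, 0 of these sensors were called. The most abundant were Slc5a1, the sodium-glucose transporter of the brush border, which enterocytes also carry (log2 fold change 0.15, adjusted p = 0.782), and Lpar5, a receptor for lysophosphatidic acid and peptides (-0.27, adjusted p = 0.428). Among receptors for the hormones and for serotonin, 8 could be tested and Glp1r, the receptor of the Gcg product GLP-1, was higher. It had 0.86, 2.48 and 1.10 CPM with the vector and 9.11, 6.75 and 4.87 CPM with circEZH2_005. The groups did not overlap, with a log2 fold change of 2.22 (SE 0.43, adjusted p = 0.0412 by edgeR). Without vector samples 1 and 3 the adjusted p was 0.136 and 0.166, without circEZH2_005 samples 1, 2 and 3 it was 0.0706, 0.132 and 0.0664, and without vector sample 2 it was 0.00525, at a log2 fold change of 2.82. Glp1r is also known from intraepithelial T cells.

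Markers of other cell types also differed between these samples. The summed level of 12 leukocyte markers was 70.3, 205 and 85.1 CPM with the vector and 495, 370 and 278 CPM with circEZH2_005, 6 of the 12 were higher without overlap, 1 passed by edgeR (Itgax, a myeloid integrin) and 5 by DESeq2, beside 16.4%, 2.69% and 9.65% of all genes. Its most abundant members were the T cell genes Cd8a (log2 fold change 1.79, adjusted p = 0.0570 by edgeR) and Cd3g (1.99, adjusted p = 0.0668). Without vector sample 2 these were 2.46 (adjusted p = 0.00262) and 2.90 (adjusted p = 0.00176). Of the vector samples, vector sample 2 was the highest for leukocyte markers and for Glp1r and Penk. The part of leukocytes in the Glp1r and Penk results was not tested. The enteric neuron and glia markers, of which 10 were listed and 4 could be tested, had 0 passing by either tool and 0 at an unadjusted p under 0.05, and their sum was 5.21 to 9.71 CPM with the vector and 4.48 to 7.21 CPM with circEZH2_005.

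Within the epithelium, crypt stem cell markers summed to 2132 to 3007 CPM with the vector and 1470 to 2128 CPM with circEZH2_005, and 2 of 10 were lower, Lgr5 (log2 fold change -0.88, adjusted p = 0.0434 by edgeR) and Smoc2 (-0.81, adjusted p = 0.0203). DESeq2 called 4 of the 10 lower, and 6 were lower without overlap, beside 4.26% and 14.2% of all genes. Enterocyte markers summed to 12333 to 14432 CPM with the vector and 12806 to 23377 CPM with circEZH2_005. Of these 8 markers, edgeR called 1 higher (Apoa4) and DESeq2 called 5, beside 2.69% and 9.65% of all genes. At an unadjusted p under 0.05, 6 were higher, and 5 were higher without overlap, beside 14.0% and 16.4% of all genes. The most abundant genes of these lists were Olfm4 and Slc12a2 (log2 fold changes -0.42 and -0.58) and Fabp2 and Apoa1 (0.98 and 0.86). None of them passed by edgeR with all samples and the filter used. DESeq2 called Slc12a2 lower and Fabp2 and Apoa1 higher. Slc12a2 had an adjusted p of 0.0384 by edgeR without vector sample 2. Without circEZH2_005 sample 1 it was 0.0156 for Fabp2 and 0.0169 for Apoa1. Over 14 alternatives the adjusted p was under 0.05 in 4 for Slc12a2, 2 for Fabp2, 4 for Apoa1 and 0 for Olfm4. The lower Neurog3 and Sox4 levels thus stood beside a stem cell sum that was lower without overlap, but only narrowly. The nearest samples were at 2132 CPM with the vector and 2128 CPM with circEZH2_005. The enterocyte sum was higher in 2 of the 3 circEZH2_005 samples. The part of cell makeup in the Neurog3 and Sox4 levels was not tested. Of the other secretory lineages, goblet cell markers summed to 5684 to 7273 CPM with the vector and 6596 to 8256 CPM with circEZH2_005 (1 of 8 higher by edgeR, Clca1, 2 higher and 1 lower by DESeq2, and 2 in each direction at an unadjusted p under 0.05), Paneth cell markers to 4371 to 7916 and 2724 to 4843 CPM (0 of 8 by edgeR, 1 lower by DESeq2 and at an unadjusted p under 0.05), and tuft cell markers to 33.7 to 40.5 and 32.0 to 38.3 CPM (0 of 7 tested by edgeR, DESeq2 or the unadjusted p). Fibroblast and muscle markers summed to 4.71 to 7.18 and 2.60 to 9.66 CPM, with 0 of 8 by all of these. Over all genes, edgeR called 2.69% higher and 0.986% lower, and DESeq2 9.65% and 4.26%. At an unadjusted p under 0.05 these shares were 14.0% and 9.72%.

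**Figure D4:**
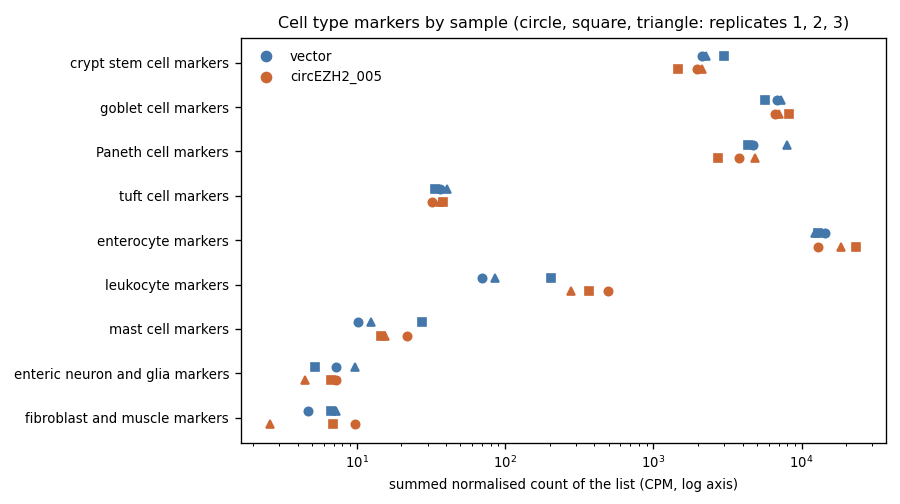
Summed normalised counts (CPM, horizontal log axis) of 9 lists of cell type markers in each vector (blue) and circEZH2_005 (orange) sample. Leukocyte markers separated the groups, at 70.3 to 205 CPM against 278 to 495 CPM, and tuft cell markers covered nearly the same range, at 33.7 to 40.5 and 32.0 to 38.3 CPM.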

How the data were processed

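Polyadenylated RNA of 6 samples was sequenced, and groups and replicate numbers were taken from the sample labels. Columns named as a negative control were read as the vector samples, since the labels give no other control group. The authors deposited for each gene and sample a raw count and an FPKM value. Their processing notes list cutadapt 1.9, HISAT2 2.0.4, StringTie 1.3.4d, DESeq2 and the build mm10 (GRCm38). The role of each tool, the annotation, the strand setting and any filter are not given in the sources used here.

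Counts were filtered with filterByExpr and scaled by TMM, and 18348 genes were tested by quasi-likelihood in edgeR 4.0.16 (R 4.3.3), without covariates. Standard errors were obtained from the log2 fold change and its F statistic. The script was tested on simulated data, in which 200 genes were changed by 1.5 on the log2 scale. At an adjusted p under 0.05, 56.5% of these were recovered, and 11.0% of the calls were unchanged genes. Alternatives were size factors of DESeq2, library totals, no filter, a mean of at least 1 CPM, DESeq2 1.42.0, limma 3.58.1 on log2(FPKM + 1) and log2(FPKM + 0.1) for genes averaging 0.5 FPKM or more, a replicate block, each sample left out, and a fold change over 2 with p under 0.05. The 10 transcripts and all lists were chosen with earlier results of these data known. Beside the 10 transcripts, the text names the called genes of each other enteroendocrine list (up to 6) or else its 2 most abundant, up to 2 abundant markers of a cell type and the 5 genes most like Chga, and genes outside this rule are marked or are called markers. Some genes of the lists were not analysed here. Exon overlaps come from GENCODE M21. Protein sequences were not used here. With at least 71506487 counts a sample, the tests rest on the spread over 3 samples a group. The part of counting error in that spread was not tested.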

Additional observations from a re-analysis of the deposited data

How the results depend on the processing

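The count of the 10 transcripts lower with circEZH2_005, 1 in the test reported, was 0 without a filter and 0 with a replicate block, and 0 to 1 with a sample left out; the count higher, 0, was 1 with a mean of at least 1 CPM and 1 by DESeq2 (Chga). For other enteroendocrine genes the 2 higher became 0 without a filter, 0 by either limma fit, 0 with the block, 5 by DESeq2 and 5 by the fold rule, and 0 to 4 with a sample left out. The 1 lower became 3 with a mean of at least 1 CPM, 6 by DESeq2, 3 and 2 by limma with pseudocounts of 1 and 0.1, 3 by the fold rule, and 0 to 4 with a sample left out. Of all genes, 493 were higher, and 132 without a filter, 1588 by DESeq2, 310 and 168 by limma, 241 with the block and 1142 by the fold rule. The 181 lower became 37 without a filter, 287 with a mean of at least 1 CPM, 701 by DESeq2, 292 by limma with a pseudocount of 1 and 36 with the block. With a sample left out they were 26 (without vector sample 1) to 1098 (without vector sample 2) higher and 2 to 334 lower. The cause of these shifts was not tested, beyond the fewer samples or other set of genes.

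Signs turned for values near 0. Gcg was -0.00101 with DESeq2's size factors, -0.0584 with library totals, -0.00173 without a filter, -0.000966 by DESeq2, and -0.0791 and -0.0846 by limma with pseudocounts of 1 and 0.1. Sst was -0.0380 with library totals and -0.0589 and -0.0648 by limma, Reg4 was -0.0396 with library totals and -0.0734 and -0.0750 by limma, and Slc5a1 was -0.00957 and -0.00973 by limma. With a sample left out, log2 fold changes ranged from -0.426 to 0.0550 for Neurod1, -0.0876 to 0.11 for Gcg, -0.0366 to 0.313 for Cck, -0.176 to 0.145 for Gip, -0.0953 to 0.152 for Sst, -0.0724 to 0.142 for Reg4 and -0.217 to 0.391 for Slc5a1. The alternatives gave 459 values over 33 of the named genes. Of these values, 360 kept direction and side of the threshold, 42 gained the threshold, 27 lost it and 30 turned sign. Pax4, Nucb2, Nmb, Lgr5, Smoc2, Itgax, Apoa4, Clca1 and Fam241b were not among these 33 genes. Library totals moved the median of all genes by -0.06.

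The replicate numbers shared by the groups did not pair the samples: deviations of samples with the same number correlated at -0.14, -0.02 and 0.04, and 1 of 6 samples correlated best with its own number. With the replicate block the adjusted p of Neurog3 was 0.0821, of Penk 0.0805, of Glp1r 0.0591 and of Sox4 0.0304. Of the 4 called genes the adjusted p stayed under 0.05 in 7 of 14 alternatives for Neurog3, 10 of 14 for Sox4, 5 of 14 for Glp1r and 4 of 11 for Penk.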
